A study of Mus musculus with 36 samples.

Results

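The genes described here mark naive T cells, the resting T cells that circulate between blood and lymph nodes before they meet antigen. The members are Ccr7, S1pr1, Klf2, Il7r, Lef1, Tcf7, Satb1 and Cd27, and every probe set of the array whose annotation gave 1 of these symbols alone was taken. That gave 13 probe sets for 7 of the 8 genes, out of 45037 probe sets without controls that stand for 18193 named genes. No probe set was named for Tcf7, the gene of the T cell transcription factor TCF-1, and it is not analysed here. Of the 13 probe sets, 10 (6 genes) had a mean over all arrays above the median of those means (log2 2.89) and were tested. The single S1pr1 set, a Lef1 set and a Satb1 set fell below it and are described without a place in the counts.

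The study asked how globin mRNA affects array measurements of mouse blood. RNA came from the peripheral blood of 18 male mice aged 8 weeks, 3 from each of the inbred strains 129S1/ImJ, FVB/NJ, DBA/2J, C57Bl/6J, C3H/HeJ and A/J. All were anaesthetised with isoflurane and bled from the heart into EDTA and then Trizol, and the labels give no engineered allele or drug treatment. Each mouse gave 1 array of GLOBINclear RNA, from which alpha and beta globin mRNA had been captured, and 1 array of whole RNA from the same extract, so that there were 12 groups of 3 arrays. The labels' protocol text writes the first strain as 129S1/SvImJ.

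Naive T cells enter lymph nodes by way of the chemokine receptor CCR7 and leave them along a sphingosine-1-phosphate gradient that S1PR1 senses. KLF2 is a transcription factor that switches on S1pr1 and holds the cells in a resting state, and the interleukin-7 receptor alpha chain, encoded by Il7r, gives them their survival signal. LEF1, TCF-1 and SATB1 are nuclear factors of T cell development and identity, and CD27 is a costimulatory receptor of the tumour necrosis factor receptor family. Blood also holds B cells, NK cells and myeloid cells that use some of these genes, Klf2 and Cd27 among them.

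The sequences before the genes Klf2, Il7r and Cd27 are shown because Il7r carried the strain differences below and because all 3 genes have 1 window each in the RefSeq promoter set of build GRCm38.p6. Each is the stretch of at most 250 bases before the start used in that set. The RefSeq gene record of Il7r begins 65 bases further upstream than that start and that of Cd27 109 bases further, so their sequences end where the gene record begins and are 185 and 141 bases long. Capitals mark GGAAG, a longer form of the GGAA core bound by ETS factors, and CACCC, the box bound by Krueppel-like factors such as KLF2. Both strands were searched, so that matches on the other strand read CTTCC and GGGTG. The motifs do not overlap each other in letters.
Klf2 (chr8:72318812-72319061, plus strand): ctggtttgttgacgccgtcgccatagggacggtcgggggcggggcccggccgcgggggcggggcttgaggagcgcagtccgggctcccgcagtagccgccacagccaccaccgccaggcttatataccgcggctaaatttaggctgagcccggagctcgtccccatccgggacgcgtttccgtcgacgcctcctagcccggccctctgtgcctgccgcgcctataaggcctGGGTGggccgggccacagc
Il7r (chr15:9529942-9530126, minus strand): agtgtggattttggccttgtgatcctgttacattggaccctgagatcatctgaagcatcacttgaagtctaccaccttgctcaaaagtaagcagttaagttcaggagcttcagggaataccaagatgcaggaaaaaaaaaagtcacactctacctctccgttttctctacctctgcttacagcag
Cd27 (chr6:125237137-125237277, minus strand): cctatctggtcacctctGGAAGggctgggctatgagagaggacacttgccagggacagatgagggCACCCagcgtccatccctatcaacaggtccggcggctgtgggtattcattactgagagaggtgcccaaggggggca
The Klf2 sequence held 1 CACCC match, 19 bases before the gene record, and the Cd27 sequence held GGAAG at 124 and CACCC at 76 bases before it. Neither GGAAG nor CACCC was found in the letters of the Il7r stretch. It does hold the shorter GGAA, which was not searched for. Of the 32851 windows in the set, 64.1% held GGAAG and 52% held CACCC in the 250 bases before the start. In the last 185 bases the shares were 54.1% and 43.2%, and in the last 141 bases 45.7% and 35.8%. Those are the bases next to the start used in the set. The Il7r and Cd27 sequences end further upstream, so the shares are of like length but another position.

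The depletion itself was visible on the arrays, with Hbb-b2, an adult beta globin gene, at 7.57 ± 0.98 in GLOBINclear RNA and 11.04 ± 0.98 in whole RNA (SD, n = 18 each) and lower in all 18 mice. The 95th percentile of an array averaged 6.57 in GLOBINclear RNA and 5.22 in whole RNA, so that brighter probe sets as a class were higher after depletion. No arrays held identical values. C57Bl/6J replicate 1 and 129S1/ImJ replicate 3 stood apart from their groups. The first had the highest mean over the 14 tested T cell receptor markers (6.21, as the mean of its arrays, against 4.59 and 4.06 in the other C57Bl/6J mice). The second had a mean over 6 neutrophil markers of 8.86, against 5.97 and 6.05 in the other 129S1/ImJ mice and at most 6.70 in the remaining strains. Of the 16 listed T cell receptor markers, 14 had a probe set and all 14 passed the filter, but Cd4 lay near the floor of the arrays (2.97 in GLOBINclear and 3.27 in whole RNA).

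Genes of lymph node homing and egress were brighter after globin depletion. Ccr7 ran between 3.82 and 7.22 with a median of 5.07 in GLOBINclear RNA, and between 2.57 and 5.30 with a median of 3.94 in whole RNA. All 18 mice had the higher value in GLOBINclear RNA, although the ranges of the preparations overlapped because the mice differed among themselves. The log2 change was 1.19 ± 0.08 (SE, limma adjusted p = 2.9e-11), a 2.28-fold rise. S1pr1 stayed close to the floor, with a range of 2.51 to 3.99 in GLOBINclear RNA (median 2.99) and of 2.52 to 3.36 in whole RNA (median 2.56). In 15 of 18 mice it was higher in GLOBINclear RNA. It had no test at the filter used here. With no filter its change was 0.46 ± 0.09 (limma adjusted p = 9.45e-05). Both preparations of a mouse came from the same extract. For differences between mice, fewer cells of a type and less RNA per cell cannot be told apart in whole blood.

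Klf2, the transcription factor upstream of S1pr1, was the brightest member. Its values ran between 5.07 and 8.37 with a median of 6.77 in GLOBINclear RNA, and between 3.63 and 6.53 with a median of 5.14 in whole RNA. Every mouse had the higher value in GLOBINclear RNA, by a log2 change of 1.47 ± 0.08 (SE, limma adjusted p = 1.65e-12).

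Il7r, the receptor for the survival cytokine, was read by a bright probe set (1448575_at) and a dim one (1448576_at). The bright set spanned 4.19 to 8.68 in GLOBINclear RNA (median 6.30) and 2.81 to 7.45 in whole RNA (median 4.46). It was higher after depletion in 18 of 18 mice, by 1.67 ± 0.11 (SE, limma adjusted p = 5.77e-11). The dim set spanned 3.06 to 5.98 in GLOBINclear RNA (median 3.70) and 3.15 to 4.30 in whole RNA (median 3.43). It was higher in 14 of 18 mice, by 0.49 ± 0.13 (limma adjusted p = 0.00229), and that change differed between strains, as given below. Over the 18 mice, as means of both arrays, the Il7r sets correlated at r = 0.88, a description of points that share extracts and arrays.

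**Figure D1:**
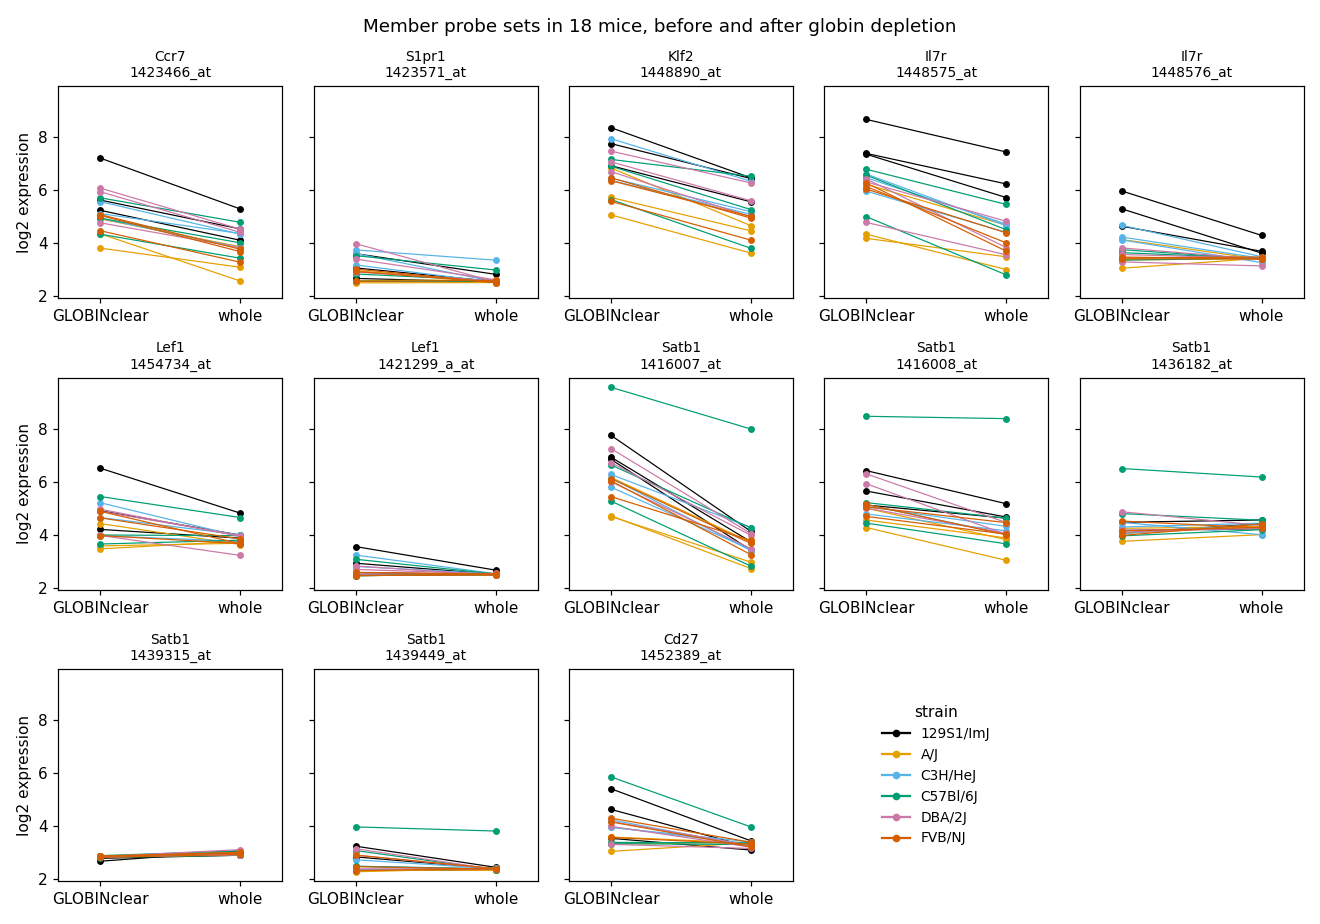
Log2 expression of all 13 member probe sets (vertical axis) in GLOBINclear and whole RNA, 1 line per mouse joining its 2 arrays, coloured by strain. Lines of Ccr7, Klf2, the bright Il7r set and Satb1 1416007_at fall toward whole RNA in all 18 mice, while S1pr1, Lef1 1421299_a_at, Satb1 1439449_at and Satb1 1439315_at lie near the floor, and 1 C57Bl/6J mouse stands above the rest for Satb1.

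The nuclear factors split by probe set. Lef1, a partner of beta-catenin that keeps T cells naive, ran between 3.47 and 6.51 in GLOBINclear RNA (median 4.53) and between 3.22 and 4.82 in whole RNA (median 3.86) on set 1454734_at. It was higher after depletion in 15 of 18 mice, by 0.62 ± 0.12 (SE, limma adjusted p = 8.95e-05). The other Lef1 set, 1421299_a_at, averaged 2.70 in GLOBINclear and 2.52 in whole RNA, near the floor, and was higher in 10 of 18 mice. With no filter its change was 0.18 ± 0.07 (SE, limma adjusted p = 0.0171). The 2 Lef1 sets correlated at r = 0.86 over the mice.

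Satb1, which organises chromatin in T cells, had 5 probe sets, whose changes ran from a small fall to the largest rise of the tested sets. Set 1416007_at ran between 4.69 and 9.57 in GLOBINclear RNA (median 6.15) and between 2.72 and 7.99 in whole RNA (median 3.70). It was higher after depletion in all 18 mice, and its change of 2.52 ± 0.13 (SE, limma adjusted p = 1.2e-12) was the largest among the 10 tested sets on the deposited scale. Set 1416008_at was also higher in 18 of 18 mice, but by 0.94 ± 0.10 (limma adjusted p = 6.47e-08), with medians of 5.09 in GLOBINclear and 4.10 in whole RNA. Set 1436182_at averaged 4.37 ± 0.61 in GLOBINclear and 4.41 ± 0.47 in whole RNA (SD, n = 18 each), a change of -0.05 ± 0.07 (SE) that did not pass (limma adjusted p = 0.52). Set 1439315_at was lower after depletion in 18 of 18 mice, by -0.13 ± 0.02 (limma adjusted p = 4.38e-06), at levels of 2.84 and 2.98 that lie at the floor. The fifth, 1439449_at, averaged 2.71 in GLOBINclear and 2.47 in whole RNA and was higher after depletion in 13 of 18 mice. With no filter its change was 0.24 ± 0.07 (SE, limma adjusted p = 0.00405). Over the mice the 3 brighter sets and 1439449_at correlated with each other at 0.93 to 0.97, whereas 1439315_at correlated with 1416007_at at -0.55. The rise of Satb1 thus held for sets 1416007_at and 1416008_at and, with no filter, for the low set 1439449_at. It did not hold for 1436182_at or 1439315_at.

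Cd27, the costimulatory receptor, ran between 3.05 and 5.87 in GLOBINclear RNA (median 3.96) and between 3.10 and 3.98 in whole RNA (median 3.33). Its spread was 0.74 in GLOBINclear RNA and 0.19 in whole RNA (SD, n = 18 each), where most mice lay near the same low level. It was higher after depletion in 16 of 18 mice, by 0.65 ± 0.14 (SE, limma adjusted p = 0.000297).

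Counted together, 8 of the 10 tested member sets were higher in GLOBINclear RNA and 1 was lower. Among all 22518 tested probe sets, 39.4% were called higher and 47.6% lower (87% in either direction), and the median change was 0.80 for the member sets and -0.05 for all sets. Changes followed the signal level over the whole array. Between mean levels of log2 5 and 7, where 3 member sets lie (Klf2, the bright Il7r set and Satb1 1416007_at), the median change was 1.43 and 90.5% of sets were called higher. Between 3.5 and 5, where 6 member sets lie, it was 0.33 with 55.7% called higher. Between 2.8 and 3.5, where Satb1 1439315_at lies, it was -0.15 with 17.4% called higher. Of the members 3 of 3 were called higher in the brightest range and 5 of 6 in the middle one, numbers too small to set them apart from probe sets of like level. When all arrays were forced to 1 distribution, Ccr7 (0.46), both Il7r sets (0.70 and 0.27), Satb1 1416007_at (1.78) and Cd27 (0.48) kept their limma calls. Under the same setting Klf2 changed by 0.23 (limma adjusted p = 0.0557), Lef1 by 0.09 (adjusted p = 0.307) and Satb1 1416008_at by 0.09 (adjusted p = 0.51), and Satb1 1436182_at was called lower at -0.78.

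**Figure D2:**
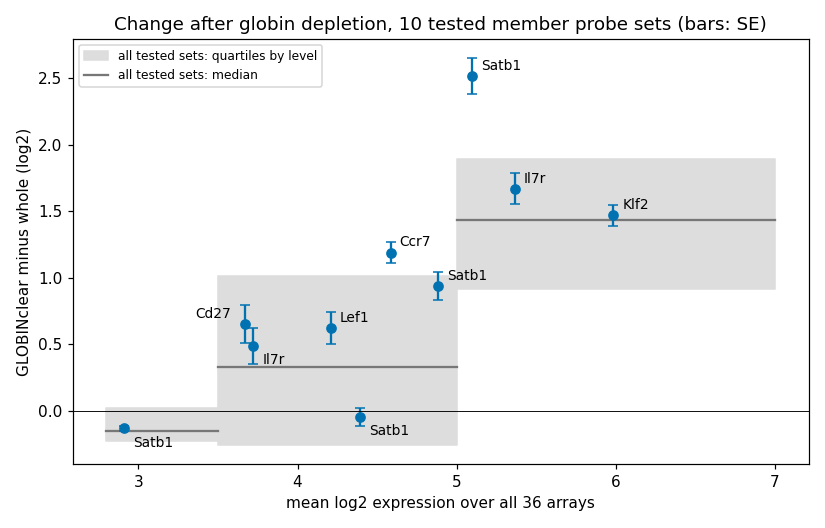
Log2 change, GLOBINclear minus whole (vertical axis, bars are SE of the limma fit), of the 10 tested member probe sets against their mean log2 level over all 36 arrays, with the median (line) and quartiles (band) of all tested probe sets in 3 level ranges. Satb1 1416007_at at 2.52 lies above the band, Ccr7 at 1.19 lies above the band of its range, and the other 8 lie within the bands.

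Strains were compared on the mean of each mouse's arrays, since both come from 1 extract. Il7r, the survival receptor, set 129S1/ImJ apart. In GLOBINclear RNA its bright set read 8.68, 7.40 and 7.36 in 129S1/ImJ, against 6.23, 4.19 and 4.34 in A/J, 5.97, 6.61 and 6.47 in C3H/HeJ, 6.80, 6.57 and 5.01 in C57Bl/6J, 4.79, 6.32 and 6.43 in DBA/2J and 6.27, 6.04 and 6.14 in FVB/NJ. The 3 mice of 129S1/ImJ lay above all 15 others. In whole RNA they read 7.45, 6.24 and 5.73, against a highest value of 5.47 elsewhere (C57Bl/6J replicate 1), so the groups did not overlap there either. The difference of 129S1/ImJ from the mean of the other 5 strains was 2.13 ± 0.44 (SE, limma adjusted p = 0.00931), a 4.38-fold difference.

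The dim Il7r set gave the same order at the top. In GLOBINclear RNA it read 5.98, 5.30 and 4.65 in 129S1/ImJ, against 4.24, 4.13 and 4.68 in C3H/HeJ, the next strain, and 3.06 to 4.14 in the other 4. The lowest 129S1/ImJ mouse thus lay just under the highest C3H/HeJ mouse. In whole RNA it read 4.30, 3.63 and 3.70 in 129S1/ImJ and at most 3.49 in any other mouse. The difference from the other 5 strains was 1.05 ± 0.15 (SE, limma adjusted p = 0.00069) on mouse means. It was 1.61 ± 0.24 in GLOBINclear RNA (adjusted p = 0.000675) and 0.48 ± 0.10 in whole RNA (adjusted p = 0.0276). For the bright set it was 1.93 ± 0.46 (adjusted p = 0.0214) and 2.33 ± 0.47 (adjusted p = 0.0185), again GLOBINclear first, all from limma.

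Across the members, limma's F test over the 6 strains called 2 of 10 sets on mouse means, both of Il7r (adjusted p = 0.0423 for the bright and 0.00372 for the dim set), where 11.4% of all tested sets were called. In GLOBINclear RNA it called the dim Il7r set alone (adjusted p = 0.00269, with 0.061 for the bright set), against 11.2% of all sets. In whole RNA it called 0 of 10 (3 at an unadjusted p under 0.05), against 4.32% of all sets. Among the contrasts of each strain with the other 5, the same 2 sets in 129S1/ImJ passed, where 2.76% of all sets were called above in 129S1/ImJ and 3.68% in all 6 contrasts together.

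**Figure D3:**
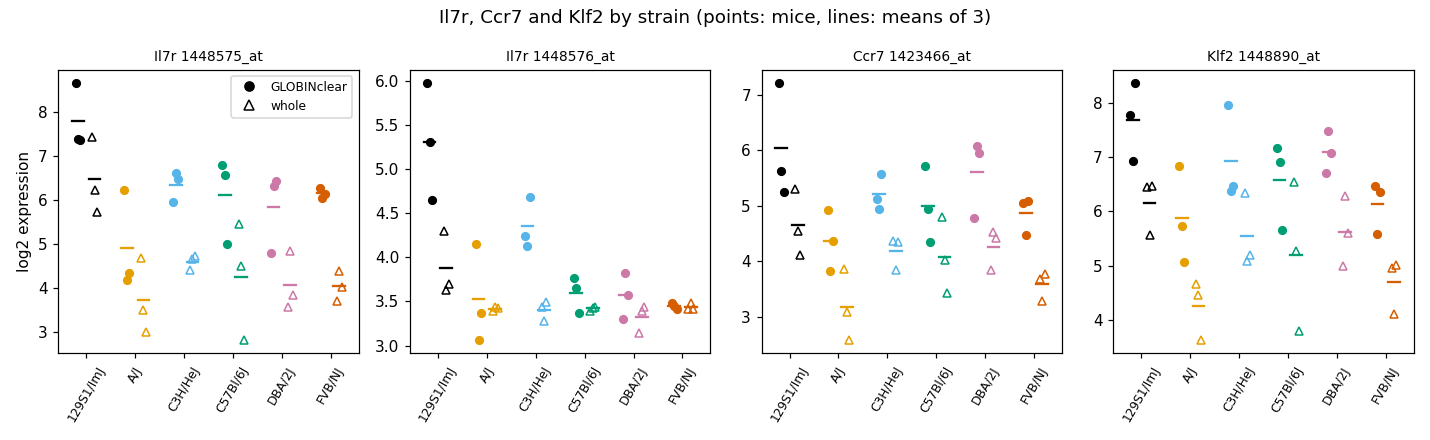
Log2 expression (vertical axes, each panel on its own range) of the Il7r, Ccr7 and Klf2 probe sets by strain, filled circles for GLOBINclear and open triangles for whole RNA, 1 point per mouse, with lines at the means of 3 mice. The 129S1/ImJ mice lie above all others for the bright Il7r set in both preparations and for the dim set in whole RNA. For the dim set in GLOBINclear RNA the lowest of them lies just under the highest C3H/HeJ mouse. For Ccr7 and Klf2 the 129S1/ImJ mice overlap the mice of other strains.

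The order of strains for the bright Il7r set on mouse means was 129S1/ImJ (7.14 ± 0.81, SD, n = 3), C3H/HeJ (5.48 ± 0.25), C57Bl/6J (5.19 ± 1.15), FVB/NJ (5.10 ± 0.12), DBA/2J (4.96 ± 0.71) and A/J (4.32 ± 0.98). No neighbours in this order passed a limma test, and 129S1/ImJ and C3H/HeJ had an adjusted p of 0.214. Between strains further apart, 129S1/ImJ was above A/J by 2.82 (limma adjusted p = 0.0101) and above FVB/NJ by 2.05 (limma adjusted p = 0.049). With each of the 18 mice left out in turn, the call against A/J was lost in 2 fits and that against FVB/NJ in 14. For the dim set 129S1/ImJ was above A/J, C57Bl/6J, DBA/2J and FVB/NJ by 1.09 to 1.15 (limma adjusted p = 0.00252 to 0.00369), and above C3H/HeJ with an adjusted p of 0.0848. These 4 calls held in all 18 fits that left out a mouse.

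Ccr7 had its highest mean in 129S1/ImJ as well (5.34 ± 0.82, SD, n = 3), followed by DBA/2J (4.93 ± 0.54), C3H/HeJ (4.70 ± 0.29), C57Bl/6J (4.54 ± 0.68), FVB/NJ (4.23 ± 0.30) and A/J (3.77 ± 0.54). The F test over strains did not pass (limma adjusted p = 0.161). Of the pairs of strains, 129S1/ImJ was above A/J by 1.57 (limma adjusted p = 0.0432), a call lost in 12 of the 18 fits that left out a mouse. With the Il7r pairs this made 7 calls, with 15 pairs tested in each of the 10 sets. Over all sets and pairs 3.51% of contrasts passed, and 5.21% of all sets did for 129S1/ImJ against A/J. Each of the 7 had 129S1/ImJ as the higher strain, and all but that of Ccr7 were of Il7r.

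The other members gave no call between strains. Klf2 ran between 5.07 ± 0.70 in A/J and 6.92 ± 0.61 in 129S1/ImJ (SD, n = 3 each, limma F adjusted p = 0.206). Its highest value was 8.37, in GLOBINclear RNA of 129S1/ImJ replicate 3, the mouse with the high neutrophil markers, and the part of these cells in that value was not tested. Lef1 was highest in 129S1/ImJ at 4.72 ± 0.85, where replicate 1 alone read 6.51 in GLOBINclear RNA against 4.91 and 4.20 in its strain mates (limma F adjusted p = 0.745). S1pr1, without a test here, had its highest mean in C3H/HeJ (3.16 ± 0.36) and its lowest in A/J (2.62 ± 0.12). A/J had the lowest mean of the 6 strains for Ccr7, S1pr1, Klf2, Lef1, Cd27, the bright Il7r set and Satb1 1416007_at, and none of its differences from the other 5 strains passed for the tested sets.

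Satb1 1416007_at and Cd27 had their highest values in the same mouse. Satb1 1416007_at read 9.57, 6.64 and 5.27 in GLOBINclear RNA of C57Bl/6J replicates 1 to 3, and 7.99, 4.26 and 2.82 in whole RNA. The first mouse lay above all 17 others in both preparations, while the third lay near the lowest. On mouse means C57Bl/6J averaged 6.09 ± 2.43 (SD, n = 3), 1.19 ± 0.61 above the other 5 strains (SE, limma adjusted p = 0.392). Cd27 read 5.87 in GLOBINclear RNA of the same mouse, against 3.39 and 3.34 in its strain mates and up to 5.42 in 129S1/ImJ. On mouse means Cd27 was highest in 129S1/ImJ (3.89 ± 0.56), followed by C57Bl/6J (3.88 ± 0.90, SD, n = 3 each, limma F adjusted p = 0.977). The mean of C57Bl/6J replicate 1 over the T cell receptor markers was also the highest of the 18 mice, as given above. The part of T cells in the Satb1 and Cd27 values was not tested. Without C57Bl/6J replicate 3, Satb1 1416007_at was called higher in C57Bl/6J than in the other 5 strains (2.22, limma adjusted p = 0.0349). Set 1436182_at was called as well (1.25, limma adjusted p = 0.0165), but the other tested Satb1 sets were not. Of all sets 3.97% were called above there. That fit keeps replicate 1 and drops the lowest mouse of the strain (8.78, 5.45 and 4.04 on 1416007_at, mouse means of replicates 1 to 3). Without replicate 1 instead, no Satb1 set was called in this contrast. The Satb1 calls thus do not show a difference shared by the mice of this strain.

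**Figure D4:**
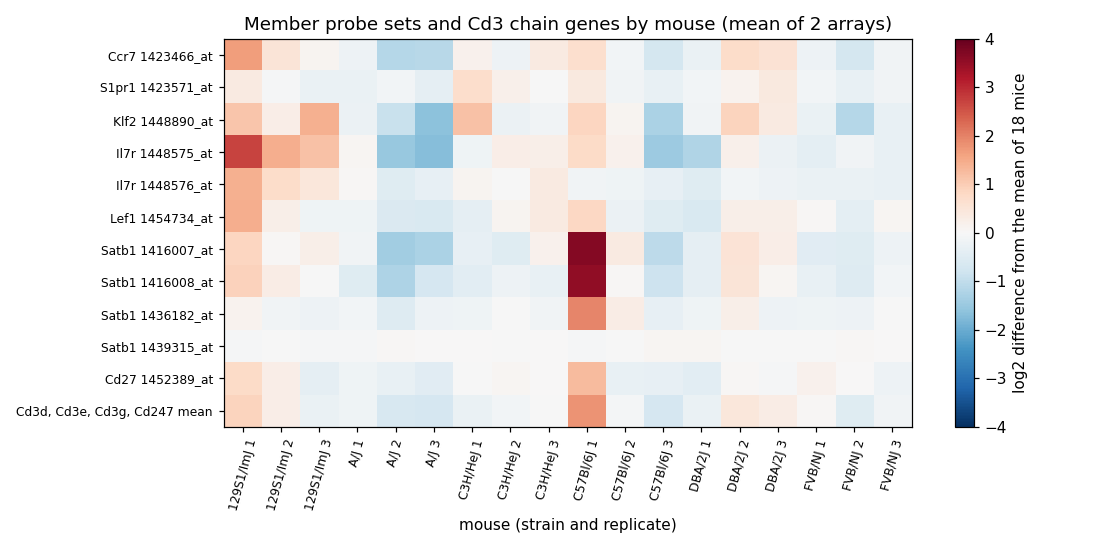
Log2 difference of each mouse (columns, mean of its 2 arrays) from the mean of the 18 mice, for the tested member probe sets, S1pr1 and the mean of the Cd3d, Cd3e, Cd3g and Cd247 sets (rows). Red is above and blue below that mean; C57Bl/6J 1 stands out for Satb1, Cd27 and the Cd3 genes, and the 129S1/ImJ mice for Il7r.

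T cell content was read from the mean of Cd3d, Cd3e, Cd3g and Cd247, chains of the T cell receptor complex. Over the 18 mice this mean correlated with Satb1 at r = 0.94, Cd27 at 0.91, Lef1 at 0.85, Ccr7 at 0.80, Il7r at 0.66, Klf2 at 0.63 and S1pr1 at 0.60, each by its brightest set. With strain means removed the values were 0.93, 0.94, 0.88, 0.84, 0.79, 0.58 and 0.69 in the same order. These are descriptions of points that share arrays and extracts. The 129S1/ImJ mice had Cd3 means of 5.67, 5.04 and 4.51, against 4.09 to 6.55 in the other 15 mice. The value of 6.55 was that of C57Bl/6J replicate 1, and the next highest of these was 5.22 (DBA/2J replicate 2). Mice of 129S1/ImJ thus overlapped those of other strains, although replicate 1 lay above all of them but C57Bl/6J replicate 1. Taken relative to these Cd3 sets, the bright Il7r set was 1.77 ± 0.43 higher in 129S1/ImJ than in the other 5 strains (SE, limma adjusted p = 0.0063), where 1.2% of all sets were called in that contrast in either direction. The dim Il7r set was 0.68 ± 0.41 higher and did not pass (adjusted p = 0.597), and neither did Ccr7 (0.54 ± 0.42), Klf2 (0.76 ± 0.44) or Lef1 (0.24 ± 0.42). Before centring the difference was 2.13 ± 0.44 for the bright and 1.05 ± 0.15 for the dim Il7r set. Centring changed the SE of this contrast unevenly. It fell from 0.61 to 0.43 for Satb1 1416007_at and went from 0.44 to 0.43 for the bright Il7r set. It rose for sets of small spread, from 0.15 to 0.41 for the dim Il7r set and from 0.03 to 0.42 for Satb1 1439315_at at the floor. For a dim set, a lost call in this setting therefore cannot decide whether it differs relative to T cells.

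The calls for Il7r leaned on the individual mice to different degrees. Without 129S1/ImJ replicate 1, the brightest Il7r mouse, the difference of the bright set fell to 1.67 and its call ended (limma adjusted p = 0.0813), while the dim set kept its call at 0.77 (adjusted p = 0.00367). The F test of the bright set lost its call in 13 of the 18 fits that left out a mouse (adjusted p up to 0.19). Of 6 tested neutrophil markers 1, Mmp9 (limma adjusted p = 0.0209), was called above the other 5 strains in 129S1/ImJ, and their median difference was 1.76. Their means were 5.97, 6.05 and 8.86 in the 129S1/ImJ mice and 4.56 to 6.70 in the others, so that replicates 1 and 2 lay within the range of the other strains. The part of these cells in the Il7r result was not tested. With C57Bl/6J replicate 1 and 129S1/ImJ replicate 3 both left out, a setting chosen after seeing the data that leaves 2 mice in each of these strains, 6 of 10 sets were called above the other strains in 129S1/ImJ, where 4.88% of all sets were. They were those of Ccr7, Il7r (both), Lef1, Satb1 1416008_at and Cd27. In the same setting 4 of 10 sets passed the F test, where 14.4% of all sets did.

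The globin depletion effect differed between strains for the dim Il7r set alone (limma interaction adjusted p = 0.0146), 1 of 10 tested sets, where 2.75% of all sets were called. Its change was 1.43 ± 0.18 in 129S1/ImJ, 0.95 ± 0.18 in C3H/HeJ, 0.24 ± 0.18 in DBA/2J, 0.17 ± 0.18 in C57Bl/6J, 0.11 ± 0.18 in A/J and 0.01 ± 0.18 in FVB/NJ (SE, n = 3 mice each). All mice of 129S1/ImJ and C3H/HeJ, and 1 of A/J, read above 4 in GLOBINclear RNA, and outside 129S1/ImJ all whole RNA values lay between 3.15 and 3.49. The bright Il7r set changed in all 6 strains, by 1.19 in A/J to 2.12 in FVB/NJ, with 1.34 in 129S1/ImJ. Without 129S1/ImJ replicate 1 or 2 the interaction no longer passed (limma adjusted p = 0.0616 and 0.0563).

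Other genes of naive T cell homing and quiescence were mostly higher after depletion. Over all tested sets 39.4% were called higher and 47.6% lower, and 90.5% were called higher between mean levels of log2 5 and 7. The gene lists were not compared with sets of like level. Of 20 listed genes 19 were tested, and 16 were higher, 1 was lower and 2 did not pass, with a median of 1.29. Igfbp4, an insulin-like growth factor binding protein, changed by 3.01 ± 0.07 (SE), Btg2, an antiproliferative gene, by 2.17 ± 0.09, and Actn1, an actin crosslinker, by 1.90 ± 0.08, each with n = 18. The lower one was Ccr9, a gut homing receptor, at -0.39 ± 0.06, named here after its value was seen. Between strains Actn1 (limma F adjusted p = 4.42e-05, highest in FVB/NJ), Slfn2 (0.00516, highest in 129S1/ImJ) and Foxo1 (0.0281, highest in DBA/2J) passed. Over all sets 11.4% passed this F test. Slfn2, which keeps T cells quiescent in mice, was 1.29 higher in 129S1/ImJ than in the other 5 strains (limma adjusted p = 0.00326), and 3 of the 19 genes were called above there, where 2.76% of all sets were. Actn1 was called below there (-0.84, limma adjusted p = 0.0117), where 3.02% of all sets were. Platelet markers also had their lowest mean in 129S1/ImJ (9.21), with 10.43 in FVB/NJ and 10.56 in C57Bl/6J. Their part in the Actn1 values was not tested.

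Of 12 tested partners of the members, 9 were higher and 1 was lower, where 39.4% and 47.6% of all sets were. Their median change was 0.61. They were led by Mfsd2b, a sphingosine-1-phosphate exporter of red cells and platelets (2.19 ± 0.10, SE, n = 18), the G protein subunit gene Gnai2 that couples CCR7 and S1PR1 (1.79 ± 0.08), and Ctnnb1, which encodes the beta-catenin partner of LEF1 and TCF-1 (1.51 ± 0.09). The lower one was Il7, the ligand of the Il7r product, at -0.31 ± 0.02 and near the floor (3.18 in GLOBINclear and 3.49 in whole RNA), named here after its value was seen. Mfsd2b alone differed between strains (limma F adjusted p = 8.02e-05), where 11.4% of all sets did, and it was highest in FVB/NJ.

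Of 11 tested activated and effector T cell genes, 7 were higher and 1 was lower, where 39.4% and 47.6% of all sets were. Their median change was 0.25. Cd44, an adhesion receptor that other leukocytes also carry, changed by 2.19 ± 0.10 (SE, n = 18), and it was the one gene of this list to differ between strains (limma F adjusted p = 0.0226, highest in C57Bl/6J). Over all sets 11.4% passed that F test. Of the 16 listed effector genes 5 were below the filter. Of 14 T cell receptor markers 10 were higher and 1 was lower, beside the same shares of all sets, with a median of 0.80. Cd3d changed by 1.89 ± 0.09, the adaptor gene Lat by 1.60 ± 0.08 and the adhesion gene Cd2 by 1.48 ± 0.10. Lat was the one marker of this list to differ between strains (limma F adjusted p = 0.00397). It was highest in 129S1/ImJ, as Il7r was, by 1.07 over the other 5 strains (limma adjusted p = 0.0152).

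The genes most like each member over the 18 mouse means were taken by Pearson correlation among tested genes. Ccr7 was followed most closely by Dgka (r = 0.96), a diacylglycerol kinase of T cells, then Gramd1a and Pank4 (0.95 and 0.93). For S1pr1 they were Abca3, Mrps12 and Atraid (0.87 to 0.88), and for Klf2 the tetraspanin gene Cd53 (0.97), Sf3b1 and Ankrd44 (0.95 each). Il7r was nearest to Atp1b3 (0.94), a subunit of the sodium pump, then Ms4a6b and Ipcef1 (0.89 each). With strain means removed Ipcef1 dropped to 0.74, while Atp1b3 stood at 0.90. Lef1 was nearest to Ecd, Mpnd and Fam189b (0.90 to 0.91), Satb1 to Spint2 (0.96), Itm2a and Cfdp1 (0.94 each), and Cd27 to Mrpl12 (0.95), the T cell receptor beta segment Trbv1 (0.92) and Arap2 (0.91). All of these are descriptions over 18 points from shared arrays, chosen as the highest of many.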

How the data were processed

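Blood RNA of 18 mice was measured on 36 Affymetrix arrays, 1 of GLOBINclear and 1 of whole RNA per mouse, grouped by preparation and strain from the labels. The deposited values were on a log2 scale, as their range shows. Tools named per the submitters' processing notes were affy, GCRMA and MAS5, but their versions, roles and order are not stated there. Joint or separate normalization of the preparations is likewise not stated in the sources used. The number of arrays limits the precision. Gene names came from the array's annotation (34945 probe sets had 1 symbol, 932 had several and 9160 had none, controls aside), and 0 value columns were left unused.

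Fits used limma 3.58.1 (R 4.3.3, with the package data.table in version 1.17.8) with an intensity trend and Benjamini-Hochberg adjustment over all 22518 tested probe sets at 0.05, with the mouse as a block for preparation effects. The mouse pairing comes from the labels, and deviations of the same mouse in both preparations correlated at -0.08 to 0.66 (median 0.38). Replicate numbers across strains did not pair mice (-0.45 to 0.54, median 0.03). Separate mice were the replicates. The fits of depletion, strain and interaction were tested on simulated data. Alternatives were the array scale, the level filter, the trend, a replicate block, Cd3 centring and leaving out mice. Named genes were all member sets, up to 3 genes per list by the moderated statistic of depletion and 3 by the strain F, and the 3 most correlated genes per member. Members and lists were chosen with earlier results of these data known. Promoter windows (250 bases before a start, less any bases inside the gene record) came from RefSeq. Figures used python 3.11.15, matplotlib 3.10.9 and pandas 2.3.3.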

Additional observations from a re-analysis of the deposited data

Results flagged for a closer look

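The effect of globin depletion on the dim Il7r probe set (1448576_at) differed between strains by limma's interaction test (adjusted p = 0.0146). It was 1.43 ± 0.18 in 129S1/ImJ and 0.95 ± 0.18 in C3H/HeJ, and 0.01 to 0.24 in the other 4 strains (SE, n = 3 mice each). The test no longer passed without 129S1/ImJ replicate 1 (adjusted p = 0.0616) or replicate 2 (adjusted p = 0.0563).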

How the results depend on the processing

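The count of member sets called higher after depletion (8) was 5 after quantile normalization of all arrays and 8 to 9 with a mouse left out, where S1pr1 passed the filter as the ninth without A/J replicate 3. With no filter S1pr1, Lef1 1421299_a_at and Satb1 1439449_at were called higher as well. Spike-in centring raised nearly all sets, as given below. The count called lower (1) was 2 after quantile normalization and 0 at a mean of at least log2 4 or after spike-in centring, and 1 with any mouse left out. The log2 4 filter leaves out Satb1 1439315_at (mean 2.91 over all arrays), so that set was not tested there. Satb1 1436182_at changed by 0.033 after median centring and 2.03 after spike-in centring, and Satb1 1439315_at by 1.94 after spike-in centring, by construction of that shift, since the median of all sets was then 2.03. Of the calls over all sets, 45.3% were higher on the deposited scale, 37.7% after quantile normalization, 52.6% after median centring and 99.9% after spike-in centring.

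Strain calls on mouse means (2) were 1 with median centring, no filter, the log2 4 filter, no trend or Cd3 centring, and 1 to 2 with a mouse left out. With the replicate number as a block they were also 1, since the bright Il7r set then had an adjusted p of 0.0505, and the block ended no other call. In GLOBINclear RNA (1) they were 2 after quantile normalization, 0 after Cd3 centring and 1 to 2 with a mouse left out (2 without A/J replicate 1 or C57Bl/6J replicate 3). In whole RNA (0) they were 1 with the log2 4 filter or Cd3 centring and 0 to 1 with a mouse left out (1 without C57Bl/6J replicate 1 or 3). Calls of a strain against the others (2) were 1 with the log2 4 filter or Cd3 centring, 1 without 129S1/ImJ replicate 1 and 4 without C57Bl/6J replicate 3. Pairs (7) were 3 after Cd3 centring and 4 to 13 with a mouse left out (5 in 9 of the 18 fits, 4 without A/J replicate 2 or 3, 11 without C57Bl/6J replicate 1 and 13 without C57Bl/6J replicate 3). The interaction (1) was 0 after quantile normalization or the log2 4 filter and 0 to 1 with a mouse left out. Under the log2 4 filter the dim Il7r set (mean 3.72 over all arrays) was not tested, so its calls cannot enter the counts for that filter. With C57Bl/6J replicate 1 and 129S1/ImJ replicate 3 both left out, a setting chosen after seeing the data, the counts were 4 on mouse means, 2 in GLOBINclear RNA, 1 in whole RNA, 6 for a strain against the others, 16 pairs and 2 interactions. Among the other lists, quantile normalization gave 3 lower naive T cell genes in place of 1, 4 partners in place of 1, 4 T cell receptor markers in place of 1, 1 B cell marker in place of 0, 4 monocyte markers in place of 1 and 2 red cell markers in place of 1. Platelet markers were then 5 higher and 1 lower. With all sets of a gene averaged, 2 T cell receptor markers and 0 effector genes were lower. The 3 mice per strain limit the precision of the strain comparisons. The cause of these shifts was not tested.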

Other observations

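Markers of the other cells of blood also had mostly higher values in GLOBINclear than in whole RNA, beside the members. Over all tested sets 39.4% were called higher and 47.6% lower. Of the tested B cell markers 9 of 10 were called higher (median log2 change 1.05), of NK and cytotoxic cell markers 5 of 7 (1.49, with 1 lower), and of neutrophil markers 5 of 6 (1.44). Of monocyte and macrophage markers 6 of 9 were higher and 1 lower (0.69), of platelet markers 8 of 8 were higher (1.41), and of red cell markers 7 of 8 were higher and 1 lower (1.48). Between strains all 8 platelet markers passed limma's F test on mouse means, whereas 4 of 10 B cell markers, 2 of 8 red cell markers and 1 each of the neutrophil and monocyte markers did. Over all tested sets 11.4% passed it.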
